A study of Mus musculus with 12 samples.

Results

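The 42 genes described here are interferon-stimulated genes, that is, genes whose transcription is switched on when a cell senses interferon. They were chosen by name, with earlier results of these data known. They were followed through 6 stages of mouse B cells activated with lipopolysaccharide (LPS), a component of bacterial outer membranes. A member was the row of the count table with the mouse Entrez gene of that name, and all 42 were found among the 27179 genes of the table and passed the filter on low counts, which left 12750 genes to test. Spleen B cells of C57BL/6 mice, males by the study's methods, were sequenced as 2 biological replicates per stage (12 libraries), and no stage carried a mutation or a treatment other than LPS. Naive B cells (B220+, IgM+, high IgD, no TCRβ) were sorted without LPS. The cells of the other stages had been isolated by negative selection, by the study's methods, and cultured with 25 μg/ml LPS. By the study's methods, the day 4 cultures were set up at a lower cell density than those of 3 h, 10 h and 33 h. No cells cultured without LPS were sequenced, so effects of LPS, of culture, of density and of isolation cannot be told apart between stages. Those taken at 3 h, 10 h and 33 h were sorted as CD69+ cells that had kept their division dye, so they had not divided. On day 4 the divided culture was split into expanded B cells, which carried CD22 and not CD138, and plasmablasts, the first antibody-secreting cells, which carried CD138 and not CD22. The mice were 6 to 12 weeks old by the study's methods, and each later stage is a population selected by sorting from the culture.

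Type I interferons bind the receptor chains Ifnar1 and Ifnar2, and the kinases Jak1 and Tyk2 then phosphorylate STAT proteins such as Stat2. Together with Irf9 these form the complex ISGF3, which binds interferon-stimulated response elements in promoters. Interferon gamma acts mainly through other elements, the gamma-activated sites. LPS is sensed by Tlr4, which can lead to interferon beta through the adaptor Ticam1, and resting lymphocytes express many of these genes at a low tonic level. Most of the proteins act on viruses: they sense foreign RNA or DNA, degrade RNA, block translation, attach the ubiquitin-like protein Isg15 to targets, or hold virus particles at the cell surface.

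Total counts were between 23026619 and 60585587 per library, with a median of 37839944. The 4 B cell markers (Cd79a, Cd79b, Ms4a1 and Cd22) were detected in every stage, with a summed level of 1755 to 8523 CPM (counts scaled to a common library size), lowest in plasmablasts. The summed level of 4 markers of activation and plasmablasts (Cd69, Sdc1, Prdm1 and Xbp1) was 170 to 1104 CPM in the first 5 stages and 3476 and 3742 CPM in plasmablasts. The proteins of Cd22, Cd69 and Sdc1 (CD138) were also used to sort the cells, so these sums are partly set by the sort. T cell markers summed to at most 3.41 CPM. Levels below are RPKM, which is CPM per kilobase of gene, computed from the deposited counts with TMM-scaled library sizes. Changes are edgeR's log2 fold changes, moderated by a prior count, of the later stage against the earlier one ± a standard error (SE). The SE is the size of the change over the square root of F from edgeR's F-test, and is approximate for genes with few counts. A gene was called higher or lower where edgeR's glmTreat found a fold change above 1.5 at a Benjamini-Hochberg adjusted p under 0.05, over all 12750 genes, and adjusted p below is from that test.

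More of the 42 genes fell than rose within 3 h of LPS, more rose than fell from 3 h to 10 h, and more fell than rose from 33 h to the expanded B cells of day 4. The calls of the first 2 steps fell only in part on the same genes, and 15 of the 42 (35.7%, against 9.44% of all genes) were called in both. By direction alone, called or not, 34 of the 42 and 2166 of all 12750 genes matched all 3 steps. From naive cells to 3 h, 23 of the 42 were called lower, where 24.3% of all tested genes were, and 2 were called higher (all genes, 21.0%). Their median log2 change was -1.83, against -0.03 over all genes. From 3 h to 10 h, 24 were called higher and 0 lower (all genes, 17.4% and 13.4%), and the median was 1.67. Between 10 h and 33 h, Ifih1, Oas2, Cmpk2, Oas1a, Herc6, Gbp7 and Isg15 (7 members) were called higher and 1 lower (all genes, 10.1% and 4.45%), and the median was 0.62. Between 33 h and expanded B cells, 31 of 42 were called lower and 0 higher (all genes, 3.66% and 6.94%), with a median of -1.68 against -0.02. Neither count of 0 changed with DESeq2 or with edgeR's F-test, and no member reached an unadjusted p under 0.05 in either of those directions. The count of 24 at 10 h was 14 without 3 h replicate 1, and the count of 31 was 20 without 33 h replicate 1 and 20 without expanded replicate 1. The count of 7 at 33 h was 19 without 10 h replicate 1 and 3 without either 10 h replicate 2 or 33 h replicate 1.

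**Figure D1:**
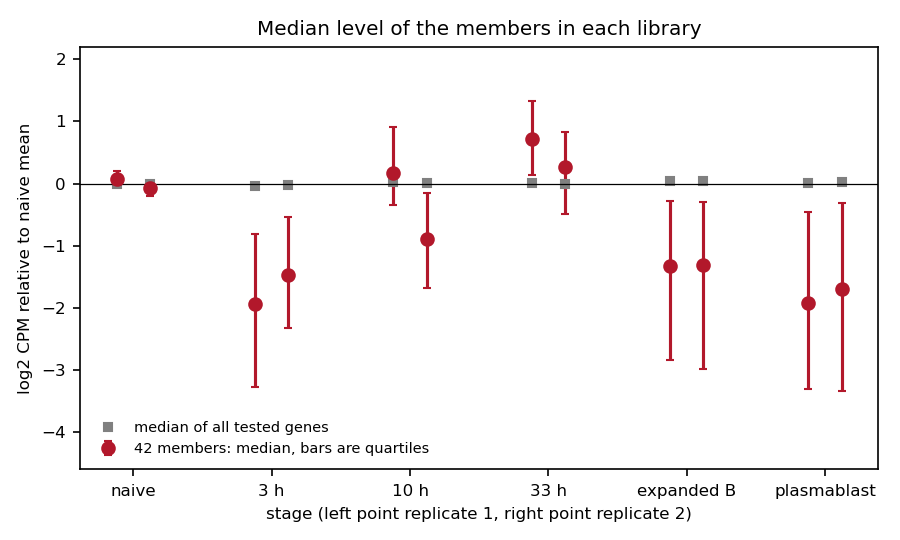
Median log2 CPM of the 42 genes relative to the naive mean (red points, bars are the quartiles over the 42) and of all 12750 tested genes (grey squares), one point per library with replicate 1 on the left. The members' median was -1.95 and -1.48 in the 3 h libraries, 0.18 and -0.90 after 10 h, 0.73 and 0.26 after 33 h, -1.33 and -1.31 for expanded B cells, and -1.92 and -1.70 for plasmablasts.

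From expanded B cells to plasmablasts 30 of the 42 were not called. Isg20, Zbp1, Bst2 and Ddx58 were called higher (9.52%, against 13.9% of all genes). Another 8 members (Gbp2, Ifit2, Oas1a, Ifit1, Gbp7, Ifih1, Herc6 and Dhx58) were called lower (19.0%, against 12.2%). These shares were near those of all genes, and the median was -0.08, against -0.05. Over the whole span from naive cells to plasmablasts, 25 were called lower and 5 higher (all genes, 23.4% and 26.6%), with a median of -1.86. At 10 h the comparison with naive cells gave 7 higher and 7 lower (all genes, 19.5% and 19.9%), with a median of -0.37. The count of 7 lower was 16 without 10 h replicate 1, and 4 without 10 h replicate 2 or without naive replicate 1. By mean RPKM, 22 of the 42 were highest at 33 h (52.4%, against 9.56% of all genes), 12 in naive cells (28.6%, against 22.6%), 4 at 10 h (9.52%, against 11.1%) and 4 in plasmablasts (9.52%, against 23.3%). The lowest mean was at 3 h for 16 members (38.1%, against 25.8%), in plasmablasts for 14 (33.3%, against 23.4%) and in expanded B cells for 8 (19.0%, against 9.71%). It was in naive cells for 4 (9.52%, against 22.6%), which were Isg15, Oasl1, Ifih1 and Cxcl10.

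**Figure D2:**
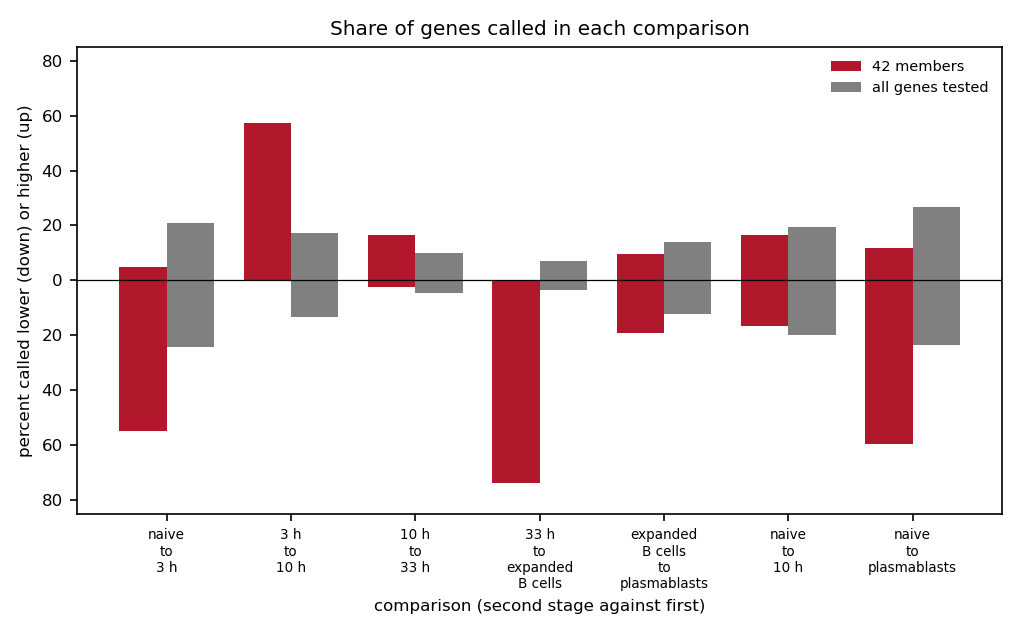
Share of the 42 members (red) and of all 12750 tested genes (grey) called higher (above 0) or lower (below 0) in 7 comparisons of the later stage with the earlier one. The red bars pass the grey ones furthest for the rise from 3 h to 10 h (57.1% of members) and for the fall from 33 h to expanded B cells (73.8%).

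Markers of other cell types moved with the first fall. The summed level of 7 myeloid markers was 275 and 121 CPM in the naive libraries and 2.43 and 4.64 CPM at 3 h, and all 7 were called lower. After 10 h it was 10.1 and 7.87 CPM, after 33 h 28.5 and 20.2, for expanded B cells 37.4 and 35.3, and for plasmablasts 0.22 and 0.40. From 3 h on those counts were nearly all of Adgre1 and Itgam, while Lyz2 and S100a8, the lysozyme and calprotectin genes of macrophages and neutrophils, had at most 2 counts in any of these libraries. Erythroid markers summed to 125 and 90.0 CPM before LPS and 0.35 and 0.74 after 3 h. For natural killer cell markers these sums were 17.7 and 15.6 against 4.04 and 5.14 CPM, and for markers of plasmacytoid dendritic cells, which make interferon, 65.6 and 60.3 against 13.3 and 24.3 CPM. The part of these cells in the naive levels of the 42 genes was not tested. Naive replicate 1 had higher myeloid and erythroid sums than naive replicate 2, and whether this bears on the fall at 3 h was not tested. In these bulk libraries fewer cells of a type and less RNA per cell cannot be told apart.

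The replicates of a stage differed along the same genes. At 10 h, 41 of 42 members were higher in replicate 1, by a median ratio of 1.94 and up to 6.29-fold, and at 33 h 41 of 42 were again higher in replicate 1, by a median of 1.34-fold. At 3 h, 32 of 42 were higher in replicate 2. The SD of the log2 ratio between replicates was 0.81 over the members at 3 h and 0.53 at 10 h, against 0.53 and 0.35 over all tested genes, whereas at 33 h and in expanded B cells the members spread no more than all genes (0.35 against 0.38, and 0.28 against 0.30). In plasmablasts the SD was 0.50 over the members and 0.35 over all genes, with members up to 2.10-fold higher in replicate 1 and up to 1.70-fold higher in replicate 2.

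**Figure D3:**
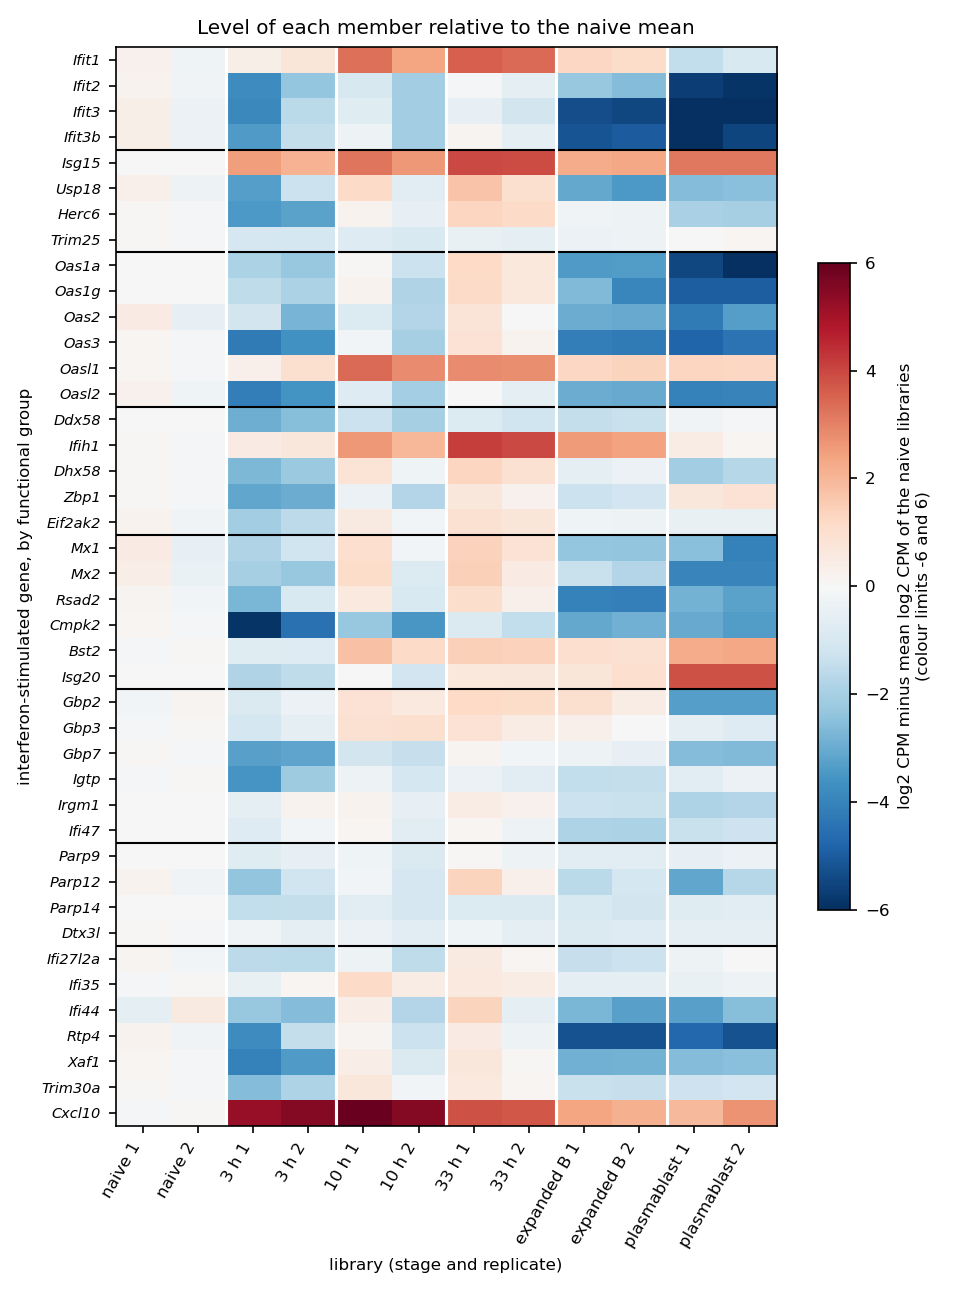
Log2 CPM of each of the 42 genes (rows, in 8 functional groups separated by black lines) in each of the 12 libraries (columns), minus the mean of the naive libraries, with blue for lower and red for higher. The 3 h and day 4 columns are mostly blue, as is 10 h replicate 2, whose median was -0.90, whereas 10 h replicate 1 and the 33 h libraries have medians above 0, and Ifit1, Isg15, Oasl1, Ifih1 and Cxcl10 stay red from 3 h to expanded B cells.

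Few reads came from the genes of the ligands. The 10 interferon genes listed, which included Ifnb1 and 4 interferon alpha genes, summed to 0.02 to 0.48 CPM in each library. Ifnb1, which encodes interferon beta, had 1 count in each of 3 h replicate 2, 33 h replicate 1 and plasmablast replicate 1 and 0 counts in the other 9 libraries. Ifna4, one of the interferon alpha genes, did not pass the filter. It had no count in naive or day 4 libraries, 1 and 4 counts after 3 h of LPS, 8 and 2 after 10 h, then 2 and 1 after 33 h. A count of 0 allows up to 3 counts, or 0.05 to 0.13 CPM over the 12 libraries. Ifng, the gene for interferon gamma, was the one listed gene that passed the filter, with 14 and 19 counts (0.49 and 0.56 RPKM) in plasmablasts and 0 to 6 in any other library, and it was called higher from expanded B cells to plasmablasts (log2 4.36 ± 0.88, adjusted p = 0.0026). T cell markers summed to 0.69 and 0.57 CPM in expanded B cells and 1.55 and 1.11 CPM in plasmablasts. Natural killer cell markers summed to 1.91 and 1.99, then 1.89 and 2.43 CPM. Which cells the Ifng counts came from was not tested.

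The receptor chains were present throughout. Ifnar1 was at 17.7 and 16.6 RPKM before LPS, 21.2 and 16.1 after 3 h and 11.9 and 13.5 after 10 h. Ifnar1 later had 8.64 and 7.60 RPKM after 33 h, 10.6 and 10.2 as expanded B cells and 14.8 and 13.7 as plasmablasts, and none of the 7 comparisons was called. Ifnar2 stood at 20.04 and 19.2 RPKM before LPS, 26.6 and 25.5 after 3 h and 20.4 and 22.0 after 10 h. Ifnar2 next had 16.9 and 14.8 RPKM after 33 h, 10.7 and 9.35 as expanded B cells and 28.1 and 31.4 as plasmablasts. Both plasmablast libraries were above all others, and the rise from expanded B cells was called (log2 1.57 ± 0.11, adjusted p = 1.6e-06). Of the 9 listed receptor and kinase genes, 3 were called higher and 1 lower at 3 h, 3 lower at 10 h, 3 lower at 33 h, 1 lower in expanded B cells and 3 higher from there to plasmablasts. Of all genes, 21.0% were called higher and 24.3% lower at 3 h, 13.4% lower at 10 h, 4.45% lower at 33 h and 13.9% higher into plasmablasts.

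Stat2, which forms ISGF3 with Irf9, followed the early part of the course of the 42 genes. Stat2 was at 25.7 and 27.3 RPKM before LPS, 3.45 and 4.11 after 3 h and 12.5 and 11.2 after 10 h. Stat2 then had 14.3 and 9.42 RPKM after 33 h, 9.95 and 8.38 as expanded B cells and 11.3 and 8.71 as plasmablasts. It was called lower (log2 -2.80 ± 0.20, adjusted p = 3.1e-07) and higher (log2 1.64 ± 0.19, adjusted p = 0.00018), but stayed below naive cells at 10 h (log2 -1.16 ± 0.18, adjusted p = 0.0031). On day 4 it was not called against 33 h (log2 -0.38 ± 0.18, adjusted p = 1). Irf9 lay at 68.6 and 62.3 RPKM before LPS, 18.9 and 29.3 after 3 h and 54.1 and 38.1 after 10 h. Irf9 later had 40.2 and 30.2 RPKM after 33 h, 11.4 and 9.74 as expanded B cells and 17.2 and 15.4 as plasmablasts. Both the 3 h and the day 4 libraries were below those of naive cells. Irf9 was called lower at 3 h (log2 -1.44 ± 0.22, adjusted p = 0.0011) and again from 33 h to expanded B cells (log2 -1.74 ± 0.22, adjusted p = 0.0012).

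Irf7, which amplifies interferon alpha production, stood at 22.1 and 17.1 RPKM before LPS, 7.05 and 8.04 after 3 h and 21.8 and 6.78 after 10 h. Irf7 next had 35.9 and 21.9 RPKM after 33 h, 4.98 and 5.96 as expanded B cells and 53.9 and 57.8 as plasmablasts. The 10 h libraries were as far apart as naive cells and 3 h. The fall from 33 h to expanded B cells (log2 -2.41 ± 0.45, adjusted p = 0.0094) and the rise into plasmablasts (log2 3.36 ± 0.46, adjusted p = 0.0004) were called. Irf1, an early target of interferon gamma, was at 41.6 and 46.0 RPKM before LPS, 13.7 and 13.5 after 3 h and 12.1 and 12.6 after 10 h. Irf1 then had 9.39 and 7.25 RPKM after 33 h, 11.8 and 10.2 as expanded B cells and 28.3 and 23.0 as plasmablasts. It was called lower at 3 h (log2 -1.69 ± 0.14, adjusted p = 2.4e-06) and not called at 10 h (log2 -0.14 ± 0.13, adjusted p = 1). It was called higher in plasmablasts than in expanded B cells (log2 1.23 ± 0.14, adjusted p = 0.0003). Socs1, the feedback inhibitor of these kinases, stood at 6.10 and 6.01 RPKM before LPS, 5.44 and 5.95 after 3 h and 6.68 and 4.12 after 10 h. Socs1 later had 6.09 and 4.63 RPKM after 33 h, 2.48 and 2.29 as expanded B cells and 3.78 and 5.12 as plasmablasts. It had log2 differences of -0.08, -0.07 and -0.01 over the steps to 33 h, not called, and fell in expanded B cells (log2 -1.17 ± 0.24, adjusted p = 0.036). A further 32 interferon-stimulated genes, listed to set beside the 42 and also with earlier results of these data known, were all tested. From naive cells to 3 h, 24 of them were called lower and 1 higher (all genes, 24.3% and 21.0%). From 3 h to 10 h, 1 was called lower and 16 higher (all genes, 13.4% and 17.4%). From 33 h to expanded B cells, 13 were called lower (all genes, 3.66%).

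Of the members' promoters, more than the share among all promoters held an interferon element. RefSeq promoter windows on GRCm38.p6 (300 bases, from 250 before to 50 after an annotated start) were found for 32 of the 42. Those of Usp18, Oas2, Dhx58, Zbp1, Mx1, Mx2, Parp9, Parp14, Ifi27l2a and Rtp4 were missing from the table. The core of the response element, GAAANNGAAA with N for any base, read on both strands with overlapping matches kept, was in the windows of 19 of 32 members (59.4%) and of 3.99% of all 27025 genes with a window. With a C at its end it was in 16 (50.0%, against 0.94%), and without its last A in 21 (65.6%, against 9.76%). The gamma-activated site TTCNNNGAA was in 8 of 32 (25.0%, against 9.55%), and 1 of its 9 matches overlapped a response element. Of the 30 response elements, 26 ended upstream of the start, between bases -213 and -3 with the first transcribed base as 0. More than 1 was found for 10 members, among them Trim30a, which had 1 in each window of its separate annotated starts.

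Stretches of 80 bases are shown for some of the members with an element, on the strand of the gene and 5′ to 3′. The matched elements are in capitals (an element on the other strand is read in reverse, and so begins with TTTC). Isg15 had 3 overlapping elements. Ifit1, Ifit3 and Ifit3b had 2 separate ones each, on the opposite strand, Oas1a, Oas1g, Bst2 and Irgm1 had 2 that overlap, and Oas3, Gbp2 and Cxcl10 had 1. The stretches of Ifit3 and Ifit3b were identical over all 80 bases, and those of Oas1a and Oas1g over 79 of 80.
Isg15 promoter, chr4:156200846-156200925, minus strand: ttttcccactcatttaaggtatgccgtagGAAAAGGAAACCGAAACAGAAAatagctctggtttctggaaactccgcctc
Ifit1 promoter, chr19:34640759-34640838, plus strand: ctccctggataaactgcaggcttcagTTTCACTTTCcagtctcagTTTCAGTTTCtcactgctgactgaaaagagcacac
Ifit3 promoter, chr19:34583355-34583434, plus strand: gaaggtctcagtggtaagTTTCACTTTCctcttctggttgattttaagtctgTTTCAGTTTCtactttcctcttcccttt
Ifit3b promoter, chr19:34607751-34607830, plus strand: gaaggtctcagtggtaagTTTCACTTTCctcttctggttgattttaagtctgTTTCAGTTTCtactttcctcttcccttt
Oas1a promoter, chr5:120907498-120907577, minus strand: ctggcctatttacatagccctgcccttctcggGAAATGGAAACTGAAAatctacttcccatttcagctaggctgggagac
Oas1g promoter, chr5:120887584-120887663, minus strand: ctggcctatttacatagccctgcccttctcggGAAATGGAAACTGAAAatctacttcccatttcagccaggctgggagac
Oas3 promoter, chr5:120777690-120777769, minus strand: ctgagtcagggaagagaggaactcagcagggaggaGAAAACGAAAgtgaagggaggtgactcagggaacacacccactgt
Bst2 promoter, chr8:71537555-71537634, minus strand: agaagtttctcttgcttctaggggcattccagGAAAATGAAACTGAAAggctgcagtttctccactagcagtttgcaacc
Irgm1 promoter, chr11:48871403-48871482, minus strand: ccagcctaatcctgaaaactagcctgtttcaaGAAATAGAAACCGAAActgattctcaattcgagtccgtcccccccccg
Gbp2 promoter, chr3:142620569-142620648, plus strand: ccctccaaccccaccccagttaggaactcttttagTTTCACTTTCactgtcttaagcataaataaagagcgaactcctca
Cxcl10 promoter, chr5:92349058-92349137, minus strand: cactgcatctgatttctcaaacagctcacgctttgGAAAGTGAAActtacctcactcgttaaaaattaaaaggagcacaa

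Members followed the course with and without an element, and a match is a description of letters, not a site shown to be bound. Of the 19 members with one, 9 were called lower at 3 h, 12 higher at 10 h and 13 lower in expanded B cells, and 4 did all of these (all genes, 24.3%, 17.4%, 3.66% and 0.557%). Of the 13 with a window but no match, the counts were 7, 7, 10 and 4. Isg15, Ifit1 and Cxcl10, which were not lower at 3 h, carried the same core as Ifit3, Oas1a and Oas3, which were.

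**Figure D4:**
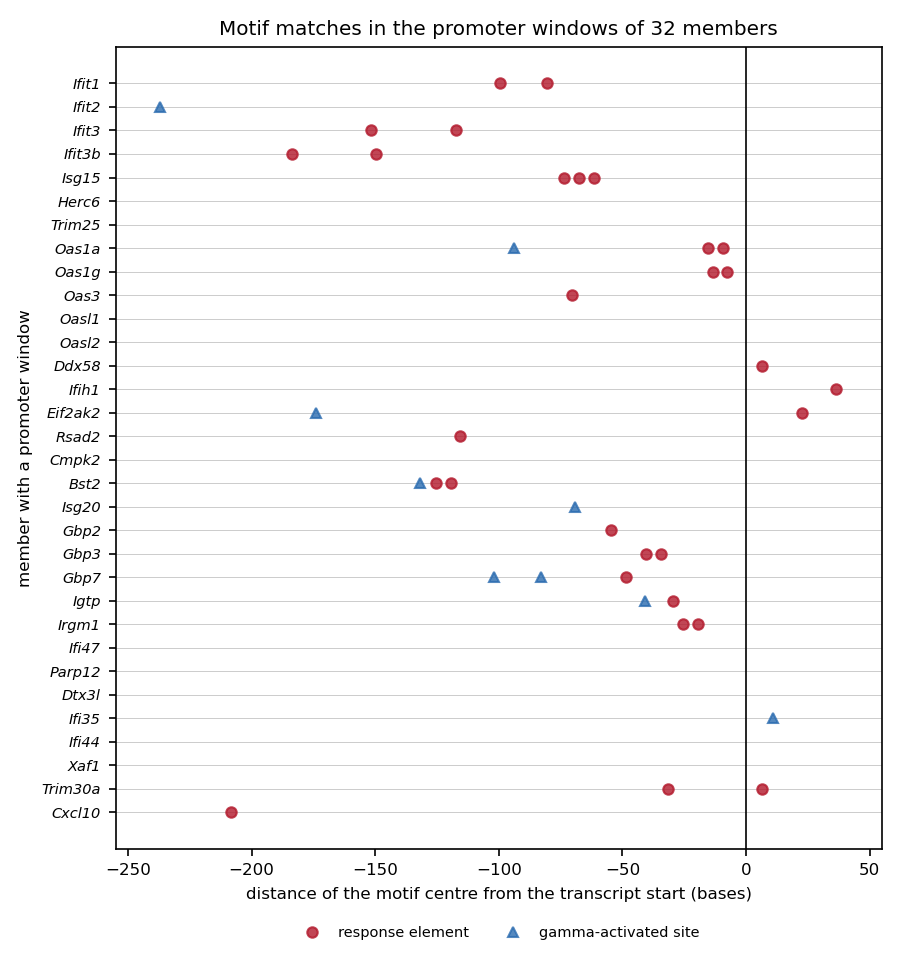
Position of each match to the response element (red circles) and the gamma-activated site (blue triangles) in the promoter windows of the 32 members that have one, as the distance of the motif's centre from the annotated transcript start in bases. Of the 30 response elements, 26 lie left of the start.

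Of the 5 sensors of foreign nucleic acid, 4 were called lower at 3 h, 5 higher at 10 h and 4 lower in expanded B cells (all genes, 24.3%, 17.4% and 3.66%). Ddx58, which encodes the RNA sensor RIG-I, lay at 38.1 and 38.2 RPKM before LPS, 5.01 and 6.49 after 3 h and 15.6 and 9.48 after 10 h. Ddx58 next had 21.9 and 16.4 RPKM after 33 h, 14.2 and 15.1 as expanded B cells and 33.2 and 35.3 as plasmablasts. The naive and plasmablast libraries were highest and did not overlap any other stage. The gene fell at 3 h (log2 -2.72 ± 0.22, adjusted p = 1.7e-06), rose at 10 h (log2 1.12 ± 0.21, adjusted p = 0.014), was not called on day 4 against 33 h (log2 -0.39 ± 0.20, adjusted p = 1), and rose from expanded B cells to plasmablasts (log2 1.23 ± 0.21, adjusted p = 0.006). Plasmablasts differed from naive cells by a log2 of -0.16 (SE 0.20), not called. The rise at 10 h was not called without 3 h replicate 1 (0.96) or 10 h replicate 1 (0.72), and with library size alone as the scaling the rise into plasmablasts was 0.89 and not called.

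Ifih1, the gene for MDA5, a sensor of long double-stranded RNA, was lowest in naive cells. It was at 1.34 and 1.20 RPKM before LPS, 1.78 and 2.01 after 3 h and 7.76 and 5.09 after 10 h. Ifih1 then had 22.8 and 19.95 RPKM after 33 h, 7.47 and 6.75 as expanded B cells and 1.73 and 1.37 as plasmablasts. Both 3 h libraries were above both naive libraries, but the change was not called (log2 0.58 ± 0.20, adjusted p = 0.42). Each step to 33 h was a called rise (log2 1.76 ± 0.19, adjusted p = 5.3e-05 and log2 1.73 ± 0.17, adjusted p = 6e-05), and each step after it a called fall (log2 -1.59 ± 0.17, adjusted p = 0.00026 and log2 -2.20 ± 0.19, adjusted p = 5.2e-06). Plasmablasts and naive cells differed by a log2 of 0.28 (SE 0.20), not called.

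Zbp1, a sensor of left-handed Z-form nucleic acid that can trigger cell death, stood at 23.5 and 21.3 RPKM before LPS, 2.58 and 2.79 after 3 h and 17.6 and 6.65 after 10 h. Zbp1 later had 35.4 and 26.7 RPKM after 33 h, 9.19 and 10.2 as expanded B cells and 36.3 and 40.3 as plasmablasts. The 3 h libraries were lowest and the 10 h libraries lay far apart, 1 close to naive cells and 1 well below. The fall (log2 -3.05 ± 0.39, adjusted p = 0.00013), the return (log2 2.18 ± 0.39, adjusted p = 0.0031), the fall on day 4 (log2 -1.69 ± 0.34, adjusted p = 0.023) and the rise into plasmablasts (log2 1.98 ± 0.35, adjusted p = 0.0033) were called. The return was 1.30 without 10 h replicate 1, and not called without 3 h replicate 1 (2.13) or 3 h replicate 2 (2.26). The day 4 fall was not called without 33 h replicate 1 (-1.47), expanded replicate 1 (-1.62) or expanded replicate 2 (-1.76).

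Eif2ak2 encodes PKR, the kinase that stops translation when it binds double-stranded RNA. It lay at 11.0 and 8.25 RPKM before LPS, 2.24 and 3.20 after 3 h and 13.8 and 8.61 after 10 h. Eif2ak2 next had 18.1 and 16.0 RPKM after 33 h, 7.87 and 7.66 as expanded B cells and 6.89 and 7.04 as plasmablasts. The 3 h libraries were the lowest of the 12, with no overlap, and the gene followed all steps (log2 -1.81 ± 0.23, adjusted p = 0.00015, log2 2.03 ± 0.23, adjusted p = 8.5e-05 and log2 -1.14 ± 0.21, adjusted p = 0.03), although the last was not called without 33 h replicate 1 (-1.04), expanded replicate 1 (-1.16) or expanded replicate 2 (-1.12). Dhx58, which encodes LGP2, a regulator of the other RNA helicases, was at 14.5 and 12.9 RPKM before LPS, 2.08 and 2.95 after 3 h and 24.2 and 11.5 after 10 h. Dhx58 then had 34.0 and 26.3 RPKM after 33 h, 9.45 and 10.7 as expanded B cells and 3.16 and 4.15 as plasmablasts. The 3 h libraries were the lowest. Dhx58 fell (log2 -2.42 ± 0.33, adjusted p = 0.00023) and rose (log2 2.80 ± 0.33, adjusted p = 0.00012) like Eif2ak2, and then fell in expanded B cells (log2 -1.58 ± 0.29, adjusted p = 0.015) and again in plasmablasts (log2 -1.46 ± 0.32, adjusted p = 0.016). The return of Dhx58 was 2.17 without 10 h replicate 1. Its day 4 fall was not called without 33 h replicate 1 (-1.38), expanded replicate 1 (-1.49) or expanded replicate 2 (-1.67), and its fall into plasmablasts not without expanded replicate 2 (-1.37) or plasmablast replicate 1 (-1.25).

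The ISG15 pathway split between the modifier and its enzymes. Isg15, the ubiquitin-like protein that is coupled to other proteins, stood at 8.40 and 8.51 RPKM before LPS, 48.3 and 36.6 after 3 h and 78.6 and 52.2 after 10 h. Isg15 later had 134 and 127 RPKM after 33 h, 39.8 and 43.1 as expanded B cells and 75.8 and 75.6 as plasmablasts. Both naive libraries were below every other library, and both 33 h libraries were above. It was called higher at 3 h (log2 2.32 ± 0.19, adjusted p = 1.2e-06), not from 3 h to 10 h (log2 0.63 ± 0.17, adjusted p = 0.38), higher again at 33 h (log2 0.99 ± 0.16, adjusted p = 0.025) and lower in expanded B cells (log2 -1.65 ± 0.17, adjusted p = 0.00016). In plasmablasts it was 8.95-fold the naive level (log2 3.16 ± 0.19, adjusted p = 2.2e-08). The step to 33 h was not called without 10 h replicate 2 (0.73), 33 h replicate 1 (0.96) or 33 h replicate 2 (1.04).

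Usp18, which removes Isg15 from proteins and also dampens the interferon receptor, lay at 5.67 and 3.72 RPKM before LPS, 0.44 and 1.84 after 3 h and 10.3 and 2.91 after 10 h. Usp18 next had 15.0 and 8.84 RPKM after 33 h, 0.52 and 0.39 as expanded B cells and 0.74 and 0.78 as plasmablasts. At each of 3 h and 10 h the replicates differed by more than 3-fold. The fall at 3 h was not called (log2 -1.93 ± 0.66, adjusted p = 0.054), the rise at 10 h was (log2 2.42 ± 0.65, adjusted p = 0.023), and so was the fall on day 4 (log2 -4.70 ± 0.71, adjusted p = 0.0017). That rise was 3.06 without 10 h replicate 2, and not called without 3 h replicate 1 (1.87), 3 h replicate 2 (3.93) or 10 h replicate 1 (1.23).

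Herc6, the mouse ligase that attaches Isg15, was at 5.43 and 4.82 RPKM before LPS, 0.45 and 0.54 after 3 h and 5.88 and 3.59 after 10 h. Herc6 then had 12.4 and 11.2 RPKM after 33 h, 4.49 and 4.15 as expanded B cells and 1.30 and 1.26 as plasmablasts. Its replicates were far apart only at 10 h. All 5 consecutive steps were called (log2 -3.34 ± 0.23, adjusted p = 1.1e-07, log2 3.23 ± 0.22, adjusted p = 4.9e-07, log2 1.32 ± 0.18, adjusted p = 0.0017, log2 -1.45 ± 0.18, adjusted p = 0.00085 and log2 -1.75 ± 0.20, adjusted p = 0.0001). Of the 81-base windows in its transcripts, 11.0% also occur in another gene, so a small part of its counts is uncertain. Trim25, a ubiquitin ligase that acts on RIG-I, stood at 41.6 and 37.9 RPKM before LPS, 19.6 and 19.0 after 3 h and 22.9 and 20.8 after 10 h. Trim25 later had 28.7 and 26.7 RPKM after 33 h, 31.6 and 32.2 as expanded B cells and 39.1 and 43.2 as plasmablasts. At 3 h it fell (log2 -1.04 ± 0.09, adjusted p = 8.3e-05) and its mean was then higher at each later stage, in steps of at most 0.37 on the log2 scale that were not called.

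The 4 IFIT proteins bind viral RNA ends, and their genes lie together at chr19:34550550-34650009 (mm10, which is GRCm38). Ifit1 lay at 3.06 and 2.10 RPKM before LPS, 3.21 and 4.16 after 3 h and 25.6 and 13.2 after 10 h. Ifit1 next had 31.2 and 26.7 RPKM after 33 h, 5.99 and 5.42 as expanded B cells and 0.90 and 1.35 as plasmablasts. Both 3 h libraries were above both naive libraries, but the change was not called (log2 0.52 ± 0.32, adjusted p = 0.54). Ifit1 rose at 10 h (log2 2.38 ± 0.30, adjusted p = 0.0002), and fell in expanded B cells (log2 -2.34 ± 0.29, adjusted p = 0.00052) and in plasmablasts (log2 -2.33 ± 0.34, adjusted p = 0.00073). Its plasmablast libraries were the lowest of all, and the fall against naive cells was called (log2 -1.19 ± 0.36, adjusted p = 0.047), but not without naive replicate 1 (-0.89) or plasmablast replicate 1 (-0.94).

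Its neighbours did not share the rise above naive cells. Ifit3 was at 16.6 and 10.4 RPKM before LPS, 0.86 and 4.21 after 3 h and 8.01 and 3.06 after 10 h. Ifit3 then had 9.48 and 6.10 RPKM after 33 h, 0.30 and 0.27 as expanded B cells and 0.021 and 0.018 as plasmablasts. Naive libraries were highest, and 3 h replicate 1 was well below replicate 2. It fell at 3 h (log2 -2.33 ± 0.59, adjusted p = 0.012) and on day 4 (log2 -4.76 ± 0.75, adjusted p = 0.0022), but its return at 10 h was not called (log2 1.05 ± 0.59, adjusted p = 0.34). The fall at 3 h was not called without 3 h replicate 1 (-1.69), and was -4.00 without replicate 2. Plasmablasts held 2 counts in all, against 1663 in naive cells, a ratio of 724 with a 95% counting interval of 200 to 5986.

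Ifit2 stood at 8.94 and 6.82 RPKM before LPS, 0.55 and 1.53 after 3 h and 4.05 and 1.81 after 10 h. Ifit2 later had 7.10 and 5.11 RPKM after 33 h, 1.58 and 1.25 as expanded B cells and 0.14 and 0.12 as plasmablasts. It was called lower at 3 h (log2 -2.85 ± 0.45, adjusted p = 0.00061), on day 4 (log2 -2.11 ± 0.42, adjusted p = 0.015) and in plasmablasts (log2 -3.48 ± 0.65, adjusted p = 0.0033), and not called higher at 10 h (log2 1.43 ± 0.45, adjusted p = 0.071). Its first fall was -3.87 without 3 h replicate 2, and the day 4 fall was not called without 33 h replicate 1 (-1.85), expanded replicate 1 (-2.29) or expanded replicate 2 (-1.96). Ifit3b, a close copy of Ifit3, shared 33.6% of its 81-base windows with it and Ifit3 shared 38.7%, so reads of this pair cannot all be assigned. It lay at 4.71 and 2.95 RPKM before LPS, 0.33 and 1.39 after 3 h and 2.97 and 0.87 after 10 h. Ifit3b next had 4.21 and 2.47 RPKM after 33 h, 0.075 and 0.089 as expanded B cells and 0 and 0.053 as plasmablasts, from 3 counts in plasmablasts. Its falls at 3 h (log2 -2.04 ± 0.64, adjusted p = 0.037) and on day 4 (log2 -5.34 ± 0.88, adjusted p = 0.0029) were called and its return was not (log2 1.06 ± 0.65, adjusted p = 0.4). The first fall was not called without naive replicate 1 (-1.66) or 3 h replicate 1 (-1.47), and was -3.56 without 3 h replicate 2.

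The OAS genes encode enzymes that make 2′-5′-linked oligoadenylate, which activates the nuclease RNase L. All 6 members were called lower from 33 h to expanded B cells (all genes, 3.66%). Besides them, this held only for the IFIT genes and the 7 unclassified members. They lie at chr5:120730333-120907544 (Oas1a, Oas1g, Oas2 and Oas3) and chr5:114896926-114937911 (Oasl1 and Oasl2). Oas3 was at 5.03 and 4.33 RPKM before LPS, 0.24 and 0.37 after 3 h and 4.17 and 1.17 after 10 h. Oas3 then had 8.63 and 5.47 RPKM after 33 h, 0.25 and 0.24 as expanded B cells and 0.15 and 0.20 as plasmablasts. The 3 h and day 4 libraries were all below 0.4 RPKM and the others all above 1. It followed the course (log2 -3.89 ± 0.58, adjusted p = 0.00034, log2 3.09 ± 0.58, adjusted p = 0.0031 and log2 -4.86 ± 0.57, adjusted p = 0.00032), and the return was 1.89 without 10 h replicate 1, 3.73 without 10 h replicate 2, and not called without 3 h replicate 1 (2.87) or 3 h replicate 2 (3.52).

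Oasl1 and Oasl2, side by side on the chromosome, took different courses. Oasl2 stood at 7.20 and 5.08 RPKM before LPS, 0.32 and 0.49 after 3 h and 3.54 and 1.47 after 10 h. Oasl2 later had 5.98 and 3.97 RPKM after 33 h, 0.75 and 0.73 as expanded B cells and 0.35 and 0.36 as plasmablasts. Its 3 h libraries were lower than those of the naive, 10 h and 33 h stages without overlap, and it followed the course (log2 -3.86 ± 0.43, adjusted p = 1.9e-05, log2 2.58 ± 0.44, adjusted p = 0.0013 and log2 -2.75 ± 0.38, adjusted p = 0.00081), with a return of 1.80 without 10 h replicate 1. Oasl1, which lacks synthase activity and represses translation of Irf7 mRNA, lay at 15.0 and 12.5 RPKM before LPS, 16.9 and 26.6 after 3 h and 147 and 97.1 after 10 h. Oasl1 next had 96.7 and 96.0 RPKM after 33 h, 32.3 and 34.4 as expanded B cells and 33.4 and 32.8 as plasmablasts. Both 3 h libraries were above both naive libraries, the change was not called (log2 0.67 ± 0.21, adjusted p = 0.28), and the rise at 10 h was (log2 2.48 ± 0.22, adjusted p = 9.6e-06). The fall on day 4 (log2 -1.53 ± 0.21, adjusted p = 0.0021) left it above naive cells in plasmablasts (log2 1.26 ± 0.21, adjusted p = 0.0027).

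Oas1a and Oas1g are near copies that shared 45.8% and 35.4% of their 81-base windows, so their separate values are uncertain. Oas1a was at 8.13 and 8.44 RPKM before LPS, 2.21 and 1.69 after 3 h and 8.58 and 3.39 after 10 h. Oas1a then had 19.0 and 13.1 RPKM after 33 h, 0.76 and 0.79 as expanded B cells and 0.16 and 0.075 as plasmablasts. It followed the course (log2 -2.11 ± 0.39, adjusted p = 0.0018, log2 1.65 ± 0.38, adjusted p = 0.017 and log2 -4.37 ± 0.41, adjusted p = 4.5e-05) and fell further in plasmablasts (log2 -2.76 ± 0.76, adjusted p = 0.026). At 33 h it rose (log2 1.41 ± 0.33, adjusted p = 0.039), by 2.25 without 10 h replicate 1, and not called without 10 h replicate 2 (0.91) or 33 h replicate 1 (1.12). The fall of Oas1a at 3 h was not called without 3 h replicate 2 (-1.93), its return not without 3 h replicate 1 (1.84), 3 h replicate 2 (1.46) or 10 h replicate 1 (0.82), and its fall into plasmablasts not without any 1 of the 4 libraries, that is, without expanded replicate 1 (-2.80), expanded replicate 2 (-2.73), plasmablast replicate 1 (-3.31) or plasmablast replicate 2 (-2.26). Oas1g stood at 0.89 and 0.86 RPKM before LPS, 0.28 and 0.21 after 3 h and 1.02 and 0.23 after 10 h. Oas1g later had 1.99 and 1.37 RPKM after 33 h, 0.11 and 0.03 as expanded B cells and 0 and 0 as plasmablasts. Among the consecutive steps only its day 4 fall was called (log2 -4.47 ± 0.69, adjusted p = 0.0017), which was -5.74 without expanded replicate 1. With 0 counts in plasmablasts against 104 in naive cells it was at least 30.2-fold lower there. Oas2 lay at 0.94 and 0.48 RPKM before LPS, 0.30 and 0.085 after 3 h and 0.37 and 0.19 after 10 h. Oas2 next had 1.17 and 0.69 RPKM after 33 h, 0.071 and 0.07 as expanded B cells and 0.022 and 0.055 as plasmablasts. It was called lower at 3 h (log2 -2.05 ± 0.55, adjusted p = 0.015), not called higher at 10 h (log2 0.72 ± 0.59, adjusted p = 0.59), called higher at 33 h (log2 1.72 ± 0.45, adjusted p = 0.045) and lower on day 4 (log2 -3.72 ± 0.57, adjusted p = 0.001). Its fall at 3 h was -3.07 without 3 h replicate 1 and not called without naive replicate 1 (-1.47) or 3 h replicate 2 (-1.28), and its rise at 33 h not without 10 h replicate 2 (1.34) or 33 h replicate 1 (1.26).

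Among 6 antiviral effectors, Mx1 and Mx2 are dynamin-like proteins that trap incoming viruses, and C57BL/6 mice carry a defective Mx1 allele. Mx1 was at 0.79 and 0.39 RPKM before LPS, 0.14 and 0.23 after 3 h and 1.13 and 0.50 after 10 h. Mx1 then had 1.48 and 1.03 RPKM after 33 h, 0.093 and 0.089 as expanded B cells and 0.079 and 0.013 as plasmablasts. All libraries were under 2 RPKM, and the fall at 3 h was not called (log2 -1.60 ± 0.55, adjusted p = 0.055), while the rise at 10 h (log2 2.07 ± 0.52, adjusted p = 0.016) and the fall on day 4 (log2 -3.78 ± 0.53, adjusted p = 0.00051) were. The rise was not called without 3 h replicate 1 (1.84) or 10 h replicate 1 (1.34). Mx2 stood at 0.48 and 0.26 RPKM before LPS, 0.069 and 0.054 after 3 h and 0.77 and 0.19 after 10 h. Mx2 later had 0.99 and 0.49 RPKM after 33 h, 0.12 and 0.087 as expanded B cells and 0 and 0 as plasmablasts. Its 3 steps were called (log2 -2.61 ± 0.92, adjusted p = 0.049, log2 3.01 ± 0.87, adjusted p = 0.027 and log2 -2.81 ± 0.67, adjusted p = 0.026). Each step of Mx2 lost its call without 1 or another of the libraries: the first without naive replicate 1 (-2.07), 3 h replicate 1 (-2.75) or 3 h replicate 2 (-2.44), the second without 3 h replicate 1 (3.15), 3 h replicate 2 (2.82) or 10 h replicate 1 (1.61) (3.66 without 10 h replicate 2), and the last without 33 h replicate 1 (-2.20), expanded replicate 1 (-3.11) or expanded replicate 2 (-2.60). In plasmablasts Mx2 had 0 counts against 55 in naive cells, at least 16.0-fold fewer.

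Rsad2 encodes viperin, which makes a chain-terminating nucleotide from CTP, and Cmpk2, its neighbour at chr12:26442743-26479837, is a mitochondrial nucleotide kinase. Rsad2 lay at 2.88 and 2.27 RPKM before LPS, 0.37 and 1.36 after 3 h and 3.83 and 1.35 after 10 h. Rsad2 next had 5.28 and 3.17 RPKM after 33 h, 0.14 and 0.13 as expanded B cells and 0.35 and 0.26 as plasmablasts. The 3 h replicates were apart and 1 of them overlapped the 10 h range. Neither the first fall (log2 -1.49 ± 0.56, adjusted p = 0.092) nor the return (log2 1.5 ± 0.56, adjusted p = 0.11) was called, whereas the fall on day 4 was (log2 -4.94 ± 0.69, adjusted p = 0.00098). Cmpk2 was at 14.4 and 12.4 RPKM before LPS, 0.21 and 0.59 after 3 h and 2.72 and 1.18 after 10 h. Cmpk2 then had 7.23 and 4.75 RPKM after 33 h, 1.56 and 1.79 as expanded B cells and 1.61 and 1.29 as plasmablasts. Its fall at 3 h was the deepest of the 42 (log2 -4.95 ± 0.45, adjusted p = 4.2e-06, a 30.8-fold change), and it was -6.02 without 3 h replicate 2. Its mean stayed below the naive level at every later stage. Cmpk2 rose at 10 h (log2 2.18 ± 0.47, adjusted p = 0.0076) and 33 h (log2 1.61 ± 0.35, adjusted p = 0.025) and fell on day 4 (log2 -1.85 ± 0.36, adjusted p = 0.015). Against naive cells it was still lower at 10 h (log2 -2.77 ± 0.36, adjusted p = 0.00014, -3.50 without 10 h replicate 1). The rise at 10 h was 3.24 without 3 h replicate 2 and not called without 3 h replicate 1 (1.75) or 10 h replicate 1 (1.44). That at 33 h was 2.36 without 10 h replicate 1 and not called without 10 h replicate 2 (1.15) or 33 h replicate 1 (1.27), and the day 4 fall not without 33 h replicate 1 (-1.51), expanded replicate 1 (-1.75) or expanded replicate 2 (-1.95).

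Bst2 and Isg20 were the effectors with their highest level in plasmablasts. Bst2, or tetherin, which holds budding virus at the membrane and is also known as a surface marker of plasma cells, stood at 37.6 and 40.9 RPKM before LPS, 23.9 and 23.2 after 3 h and 135 and 88.5 after 10 h. Bst2 later had 108 and 102 RPKM after 33 h, 79.1 and 74.8 as expanded B cells and 184 and 194 as plasmablasts. The 3 h libraries were lowest and the plasmablast libraries highest, without overlap. The first fall was not called (log2 -0.74 ± 0.16, adjusted p = 0.12), the rise at 10 h was (log2 2.25 ± 0.16, adjusted p = 9.3e-07), day 4 B cells were not called against 33 h (log2 -0.44 ± 0.15, adjusted p = 1), and plasmablasts rose over expanded B cells (log2 1.29 ± 0.15, adjusted p = 0.00031). Isg20, a 3′-5′ exonuclease of single-stranded RNA, lay at 17.2 and 17.3 RPKM before LPS, 4.86 and 5.98 after 3 h and 17.1 and 7.84 after 10 h. Isg20 next had 26.5 and 27.3 RPKM after 33 h, 28.4 and 35.1 as expanded B cells and 241 and 246 as plasmablasts. Plasmablasts were far above all other libraries. The gene fell at 3 h (log2 -1.65 ± 0.30, adjusted p = 0.0025), rose at 10 h (log2 1.19 ± 0.29, adjusted p = 0.035), was not called on day 4 (log2 0.24 ± 0.25, adjusted p = 1) and then made the largest rise of any member into plasmablasts (log2 2.94 ± 0.26, adjusted p = 1.2e-05, 7.68-fold). Against naive cells this was 14.2-fold (log2 3.82 ± 0.28, adjusted p = 4.5e-07). The fall of Isg20 at 3 h was not called without 3 h replicate 1 (-1.52) and its rise at 10 h not without 3 h replicate 1 (1.07), 3 h replicate 2 (1.39) or 10 h replicate 1 (0.52).

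The 6 interferon-inducible GTPases (guanylate-binding proteins and immunity-related GTPases) attack vacuoles that hold pathogens. Of these, 2 were called lower at 3 h, 4 higher at 10 h and 2 lower in expanded B cells (all genes, 24.3%, 17.4% and 3.66%). Gbp2 was at 18.2 and 22.4 RPKM before LPS, 11.1 and 16.0 after 3 h and 36.9 and 30.5 after 10 h. Gbp2 then had 47.0 and 42.8 RPKM after 33 h, 39.4 and 27.5 as expanded B cells and 2.00 and 2.03 as plasmablasts. Both plasmablast libraries were near 2 RPKM and all others above 11. It was not called at 3 h (log2 -0.57 ± 0.20, adjusted p = 0.44), rose at 10 h (log2 1.30 ± 0.20, adjusted p = 0.0022), was not called from 33 h to expanded B cells (log2 -0.43 ± 0.19, adjusted p = 1), and then had the deepest called fall of any member into plasmablasts (log2 -4.05 ± 0.23, adjusted p = 1.3e-07, 16.6-fold). Gbp7 stood at 4.92 and 4.61 RPKM before LPS, 0.49 and 0.51 after 3 h and 2.24 and 1.82 after 10 h. Gbp7 later had 5.29 and 4.23 RPKM after 33 h, 3.81 and 3.34 as expanded B cells and 0.79 and 0.76 as plasmablasts, with 11.0% of its 81-base windows in another gene. At 3 h it fell (log2 -3.24 ± 0.17, adjusted p = 1e-08), rose at 10 h (log2 2.01 ± 0.17, adjusted p = 6e-06) and 33 h (log2 1.23 ± 0.14, adjusted p = 0.00081), was not called on day 4 (log2 -0.41 ± 0.14, adjusted p = 1) and fell into plasmablasts (log2 -2.22 ± 0.16, adjusted p = 8.8e-07). Gbp3, which lies with both at chr3:142530336-142638008, lay at 30.0 and 33.1 RPKM before LPS, 15.1 and 21.8 after 3 h and 59.8 and 60.4 after 10 h. Gbp3 next had 57.4 and 42.8 RPKM after 33 h, 38.8 and 32.4 as expanded B cells and 21.6 and 18.5 as plasmablasts. It was called only for the rise at 10 h (log2 1.70 ± 0.18, adjusted p = 6.7e-05) among the consecutive steps, with the fall at 3 h (log2 -0.77 ± 0.17, adjusted p = 0.11) and that on day 4 (log2 -0.49 ± 0.17, adjusted p = 1) not called.

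Irgm1 and Ifi47 were called only in the late fall of the 3 steps of the course. Irgm1, a regulator of the other immunity-related GTPases, was at 56.7 and 55.2 RPKM before LPS, 38.4 and 64.3 after 3 h and 65.6 and 40.3 after 10 h. Irgm1 then had 76.2 and 67.6 RPKM after 33 h, 23.0 and 22.4 as expanded B cells and 15.3 and 16.5 as plasmablasts. Naive, 3 h and 10 h libraries overlapped, both 33 h libraries were above them and all day 4 libraries below. Neither early step was called (log2 -0.12 ± 0.23, adjusted p = 1 and log2 0.04 ± 0.23, adjusted p = 1), and the fall on day 4 was (log2 -1.66 ± 0.24, adjusted p = 0.0029). Ifi47 stood at 67.7 and 63.5 RPKM before LPS, 37.99 and 58.1 after 3 h and 71.2 and 40.6 after 10 h. Ifi47 later had 71.7 and 52.9 RPKM after 33 h, 18.4 and 17.3 as expanded B cells and 26.3 and 27.8 as plasmablasts. Among the consecutive steps it likewise was called only on day 4 (log2 -1.80 ± 0.26, adjusted p = 0.0027), after changes of -0.44 (SE 0.25) and 0.21 (SE 0.25). Igtp, or Irgm3, was called in the early steps instead. It lay at 25.4 and 28.3 RPKM before LPS, 2.29 and 6.09 after 3 h and 21.7 and 12.7 after 10 h. Igtp next had 21.3 and 16.9 RPKM after 33 h, 9.58 and 9.95 as expanded B cells and 17.4 and 20.8 as plasmablasts. Igtp fell at 3 h (log2 -2.62 ± 0.37, adjusted p = 0.0003, -3.58 without 3 h replicate 2), rose at 10 h (log2 1.98 ± 0.36, adjusted p = 0.0041, 2.93 without 3 h replicate 2) and was not called on day 4 (log2 -0.97 ± 0.34, adjusted p = 0.31), with 7.02% of its 81-base windows shared with Irgm2.

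The PARP proteins attach ADP-ribose to proteins, and Dtx3l is the ubiquitin ligase partner of Parp9. The genes of Parp14, Parp9 and Dtx3l lie at chr16:35831892-35972621, and 1 of these 3 was called in a step of the course. Parp14 was at 22.9 and 23.2 RPKM before LPS, 8.30 and 8.53 after 3 h and 15.0 and 11.6 after 10 h. Parp14 then had 13.2 and 12.6 RPKM after 33 h, 12.1 and 10.8 as expanded B cells and 13.8 and 14.5 as plasmablasts. It fell at 3 h, with both libraries below all others (log2 -1.45 ± 0.11, adjusted p = 2.8e-06), was not called higher at 10 h (log2 0.66 ± 0.11, adjusted p = 0.25) and not called on day 4 (log2 -0.17 ± 0.11, adjusted p = 1). Parp9 stood at 29.5 and 30.0 RPKM before LPS, 17.8 and 21.2 after 3 h and 25.1 and 16.5 after 10 h. Parp9 later had 31.3 and 23.8 RPKM after 33 h, 19.1 and 18.5 as expanded B cells and 21.2 and 23.1 as plasmablasts, and no comparison was called. Dtx3l lay at 20.7 and 18.9 RPKM before LPS, 17.2 and 13.5 after 3 h and 15.3 and 12.4 after 10 h. Dtx3l next had 16.8 and 13.6 RPKM after 33 h, 10.7 and 11.6 as expanded B cells and 13.3 and 13.6 as plasmablasts, again with no call, and its mean was lower at 10 h than at 3 h by -0.15 (SE 0.14). No other member had that direction. Parp9 and Dtx3l overlap on the chromosome, and whether the counting used the strand is not given in the sources used here. Parp12, on another chromosome, was at 0.29 and 0.22 RPKM before LPS, 0.035 and 0.10 after 3 h and 0.23 and 0.11 after 10 h. Parp12 then had 0.67 and 0.32 RPKM after 33 h, 0.07 and 0.11 as expanded B cells and 0.013 and 0.066 as plasmablasts. At these low levels the 3 h fall (log2 -1.75 ± 0.65, adjusted p = 0.066) and the return (log2 1.19 ± 0.66, adjusted p = 0.31) were not called and the day 4 fall was (log2 -2.49 ± 0.52, adjusted p = 0.01), though not without 33 h replicate 1 (-1.82) or expanded replicate 1 (-2.17).

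All 7 other members were called lower from 33 h to expanded B cells (all genes, 3.66%). Cxcl10, the chemokine that draws Cxcr3+ lymphocytes, made the largest rise of the 42 at 3 h. It stood at 0.19 and 0.21 RPKM before LPS, 9.27 and 11.3 after 3 h and 15.4 and 11.3 after 10 h. Cxcl10 later had 3.51 and 3.24 RPKM after 33 h, 1.23 and 1.04 as expanded B cells and 0.92 and 1.57 as plasmablasts. Naive libraries were the lowest of the 12 and the 3 h and 10 h libraries the highest, with no overlap with the other stages. It rose 51.4-fold at 3 h (log2 5.68 ± 0.33, adjusted p = 1.5e-08), was not called from 3 h to 10 h (log2 0.37 ± 0.20, adjusted p = 0.97), and was the one member called lower at 33 h (log2 -1.98 ± 0.21, adjusted p = 6.4e-05), with a further fall on day 4 (log2 -1.57 ± 0.25, adjusted p = 0.0035). In plasmablasts it was still 6.30-fold above naive cells (log2 2.65 ± 0.41, adjusted p = 0.00022).

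Ifi27l2a, a small hydrophobic protein, was the most highly expressed member at 33 h. It lay at 307 and 240.0 RPKM before LPS, 91.6 and 89.8 after 3 h and 223 and 94.9 after 10 h. Ifi27l2a next had 394 and 291 RPKM after 33 h, 104 and 110.0 as expanded B cells and 219 and 276 as plasmablasts. The 3 h libraries were the lowest, and 1 of the 10 h libraries was close to them. The gene fell at 3 h (log2 -1.59 ± 0.33, adjusted p = 0.0073) and on day 4 (log2 -1.68 ± 0.33, adjusted p = 0.019), and the return at 10 h was not called (log2 0.81 ± 0.33, adjusted p = 0.26). The first fall was not called without 3 h replicate 1 (-1.60) or 3 h replicate 2 (-1.61), nor the last without 33 h replicate 1 (-1.45), expanded replicate 1 (-1.64) or expanded replicate 2 (-1.72). Rtp4, a chaperone of G protein-coupled receptors, was at 14.0 and 10.5 RPKM before LPS, 0.85 and 4.49 after 3 h and 13.4 and 4.96 after 10 h. Rtp4 then had 17.2 and 9.79 RPKM after 33 h, 0.29 and 0.29 as expanded B cells and 0.43 and 0.29 as plasmablasts. At 3 h it fell (log2 -2.10 ± 0.61, adjusted p = 0.025) and on day 4 by 46.9-fold (log2 -5.55 ± 0.79, adjusted p = 0.0011), and its return was not called (log2 1.69 ± 0.60, adjusted p = 0.093). The first fall was -3.87 without 3 h replicate 2 and not called without naive replicate 1 (-1.87) or 3 h replicate 1 (-1.44), and 10.2% of its 81-base windows occur in another gene.

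Xaf1, which promotes cell death, and Trim30a, a ubiquitin ligase that restrains Toll-like receptor signals, both followed the course. Xaf1 stood at 6.54 and 5.51 RPKM before LPS, 0.34 and 0.56 after 3 h and 7.85 and 3.26 after 10 h. Xaf1 later had 9.52 and 6.29 RPKM after 33 h, 0.79 and 0.83 as expanded B cells and 0.96 and 1.03 as plasmablasts. Its steps were called (log2 -3.68 ± 0.44, adjusted p = 3.8e-05, log2 3.57 ± 0.44, adjusted p = 9.8e-05 and log2 -3.29 ± 0.38, adjusted p = 0.00023), and its return, at 11.9-fold, was the largest of the 42. It was 2.79 without 10 h replicate 1. Trim30a lay at 37.0 and 34.0 RPKM before LPS, 5.82 and 9.77 after 3 h and 56.6 and 31.5 after 10 h. Trim30a next had 52.9 and 38.1 RPKM after 33 h, 14.1 and 13.5 as expanded B cells and 14.7 and 16.2 as plasmablasts. Its steps were called too (log2 -2.17 ± 0.30, adjusted p = 0.00032, log2 2.48 ± 0.30, adjusted p = 0.0002 and log2 -1.72 ± 0.29, adjusted p = 0.0081), the last not without 33 h replicate 1 (-1.46), expanded replicate 1 (-1.75) or expanded replicate 2 (-1.69).

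Ifi35 was at 39.8 and 43.6 RPKM before LPS, 30.9 and 45.7 after 3 h and 92.1 and 57.4 after 10 h. Ifi35 then had 62.6 and 56.5 RPKM after 33 h, 27.3 and 28.5 as expanded B cells and 30.3 and 33.9 as plasmablasts. Naive and 3 h libraries overlapped (log2 -0.12 ± 0.21, adjusted p = 1), and the rise at 10 h (log2 0.96 ± 0.21, adjusted p = 0.047) and the fall on day 4 (log2 -1.10 ± 0.21, adjusted p = 0.04) were called. Both calls were near the threshold. The first was lost without 3 h replicate 1 (0.71) or 10 h replicate 1 (0.58) and the second without any 1 of the 4 libraries, that is, without 33 h replicate 1 (-1.02), 33 h replicate 2 (-1.17), expanded replicate 1 (-1.07) or expanded replicate 2 (-1.13), and with the replicate number as a block both were lost. Ifi44 was barely expressed, with no library above 0.47 RPKM. Its naive libraries held 30 counts in all, against 2 at 3 h (ratio 12.2, 95% counting interval 3.09 to 105), and the test did not call the change (adjusted p = 0.07). From 36 counts at 10 h the ratio to 3 h was 10.1 (2.61 to 86.9), not called (adjusted p = 0.14). The 33 h libraries held 89 counts against 1 in expanded B cells (ratio 70.1, 12.3 to 2799), which was called (adjusted p = 0.016), but not without 33 h replicate 1 or either expanded library.

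Taking all 3 steps, 11 of the 42 members (26.2%) were called lower at 3 h, higher at 10 h and lower in expanded B cells, where 0.557% of all tested genes were: Herc6, Oas1a, Oas3, Oasl2, Dhx58, Zbp1, Eif2ak2, Mx2, Cmpk2, Xaf1 and Trim30a. The number was 5 without 3 h replicate 1, 33 h replicate 1 or either expanded library, and 19 without 10 h replicate 2. The members were chosen with earlier results of these data known. Their shares beside those of all genes are therefore a description, not a test. By direction alone 34 of 42 fitted, and 2166 of all 12750 genes. The 8 that went another way were Ifit1, Isg15, Oasl1, Ifih1 and Cxcl10, with a fitted change above 0 at 3 h (called for Isg15 and Cxcl10), Dtx3l, below 0 at 10 h, and Trim25 and Isg20, above 0 on day 4.

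**Figure D5:**
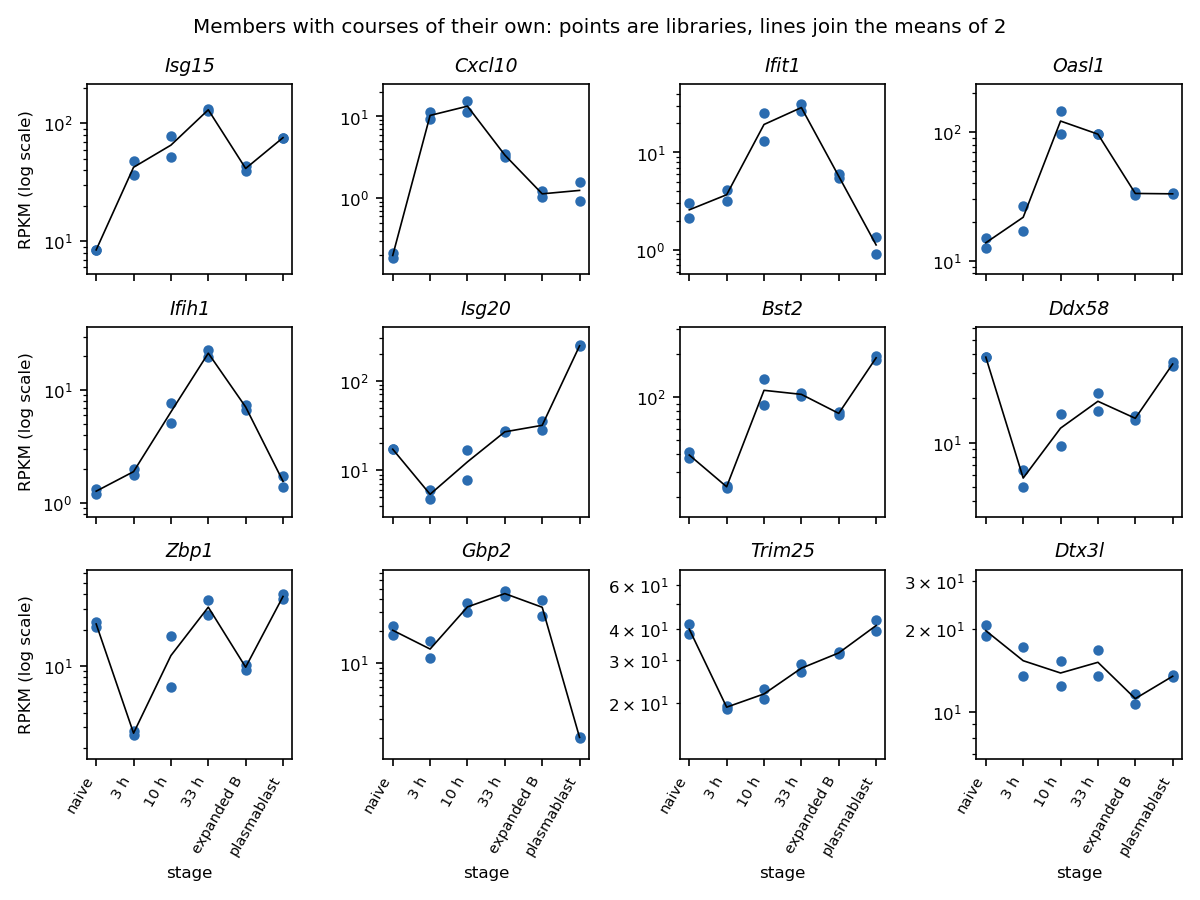
Level of 12 members in RPKM (log axis, its range set for each gene) at each stage, with a point for each library and a line through the means of the 2 libraries. Isg15, Cxcl10, Ifit1, Oasl1 and Ifih1 do not dip at 3 h, Isg20, Bst2, Ddx58 and Zbp1 rise into plasmablasts, Gbp2 falls there, and Trim25 and Dtx3l move least.

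At 10 h the members higher than in naive cells were Cxcl10 (log2 6.05 ± 0.32, adjusted p = 1.2e-08), Oasl1 (log2 3.14 ± 0.22, adjusted p = 6.5e-07), Isg15 (log2 2.95 ± 0.19, adjusted p = 1.1e-07), Ifit1, Ifih1, Bst2 and Gbp3. Those lower were Cmpk2, Ddx58 (log2 -1.60 ± 0.21, adjusted p = 0.00031), Ifit2 (log2 -1.42 ± 0.40, adjusted p = 0.038), Oasl2, Gbp7, Trim25 and Parp14. The fall of Ifit2 was -2.12 without 10 h replicate 1 and not called without naive replicate 1 (-1.21) or 10 h replicate 2 (-0.95). In plasmablasts Oasl1, Bst2, Cxcl10, Isg15 and Isg20 were called above naive cells, and 25 members below. The 25 included 4 of 4 IFIT genes and 5 of 6 OAS genes, but 1 of 5 sensors and 1 of 4 PARP and Dtx3l genes. The last 2 were near the share of all genes called lower there (23.4%). Ifit3, Ifit3b, Oas1g, Mx2 and Ifi44 held at most 3 counts in plasmablasts, so that their falls are given as ratios of counts or lower bounds (Ifit3b, ratio 138, 95% counting interval 46.8 to 670; Ifi44, ratio 26.1, interval 4.34 to 1066). Mx2, with 55 counts in naive cells and 0 in plasmablasts, was at least 16.0-fold lower against the floor of 3 counts over the stage. Among members with more counts, Oas1a (log2 -6.18 ± 0.59, adjusted p = 3.8e-06) and Ifit2 (log2 -5.95 ± 0.60, adjusted p = 1.2e-05) fell most.

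Counted step by step, 19 members were not called lower at 3 h: Ifit1, Isg15, Usp18, Oas1g, Oasl1, Ifih1, Mx1, Rsad2, Bst2, Gbp2, Gbp3, Irgm1, Ifi47, Parp9, Parp12, Dtx3l, Ifi35, Ifi44 and Cxcl10. The return at 10 h was not called for 18, which were Ifit2, Ifit3, Ifit3b, Isg15, Trim25, Oas1g, Oas2, Rsad2, Irgm1, Ifi47, Parp9, Parp12, Parp14, Dtx3l, Ifi27l2a, Ifi44, Rtp4 and Cxcl10. The fall on day 4 was not called for 11, which were Trim25, Ddx58, Bst2, Isg20, Gbp2, Gbp3, Gbp7, Igtp, Parp9, Parp14 and Dtx3l. A change that was not called is not shown to be absent, since for Usp18 (log2 change -1.93) and Oas1g (-1.85) the fitted change at 3 h was larger than that of several called members.

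Some calls did not hold with another tool or fit. DESeq2's Wald test at the same fold did not call the falls at 3 h of Ifit3b, Oas2, Mx2 and Rtp4 or the rises at 10 h of Usp18, Ddx58, Mx1, Isg20 and Ifi35. It also did not call the rises at 33 h of Isg15, Oas1a, Oas2 and Cmpk2, or the falls in expanded B cells of Ifit2, Zbp1, Eif2ak2, Mx2, Cmpk2, Parp12, Ifi27l2a and Ifi35. A fit to only the 4 libraries compared did not call the rises at 10 h of Usp18, Oas1a, Ddx58, Mx2, Isg20 and Ifi35, or those at 33 h of Oas1a and Cmpk2. With DESeq2's size factors in edgeR the rises at 10 h of Isg20 (1.12) and Ifi35 (0.88) were not called. The rise of Oas2 at 33 h was not called with library size alone (1.66) or with the removed genes kept (1.69), and the day 4 fall of Ifi35 not with at least 10 counts in every library (-1.06). The replicate block ended the calls of Ifi35 at 10 h and on day 4, and library size alone that of Ddx58 from expanded B cells to plasmablasts. Against naive cells, DESeq2 did not call Ifit2, Oasl2, Gbp3 and Parp14 at 10 h or Ifit1 and Trim30a in plasmablasts. At 10 h the fit to 4 libraries did not call Ifit1, Ifit2, Oasl2, Ddx58 and Cmpk2, library size alone did not call Ifit2, Oasl2 and Parp14, and DESeq2's size factors did not call Gbp3.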

How the data were processed

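Polyadenylated RNA of sorted mouse spleen B cells was sequenced as 81-base read pairs from 12 libraries, 2 biological replicates in each of 6 stages by the study's account. The authors processed the runs with CASAVA 1.8.2, mapped the reads by Rsubread against mm10, and used featureCounts to count them per Entrez gene. The deposited values are raw counts. Strand setting and treatment of reads that map to several places are not given in the sources used here, so counts of near copies and of overlapping genes are uncertain. Of 27179 genes, mitochondrial (15), ribosomal RNA (33), variable immunoglobulin (248), X and Y (1279) and unmatched genes (1904) were removed, which left 23700 genes holding 84.0% to 90.6% of a library's counts.

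With R 4.3.3, edgeR 4.0.16 (filterByExpr, TMM, robust quasi-likelihood fit of all 12 libraries, glmTreat at a fold of 1.5, Benjamini-Hochberg over 12750 genes) tested 7 pairs of stages. An exact permutation test of 2 libraries against 2 cannot give a p below 0.333, so single-gene permutation p-values were not used. Log2 CPM used a prior count of 2. Where a stage held at most 3 counts of a gene, the fold was taken from summed counts with a 95% exact interval, or as a lower bound against 3 counts. Intervals and floors cover counting error only. Replicates differed by more than sampling noise in every stage (chi-square per degree of freedom 6.86 to 43.7), so no pair was counted as 1 library. Alternatives were DESeq2 1.42.0, other scalings, filters, gene sets, dispersions and samples, a replicate block, the F-test without a fold threshold, and leaving out each library.

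All 42 members are named. Among called members the 3 largest rises and falls of each comparison, and each member that missed a step of the course, are given with values. The members and the gene lists were chosen with earlier results of these data known, and some genes of the lists are not reported here. Motifs were searched in RefSeq promoter windows of GRCm38.p6, the assembly of mm10.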

Additional observations from a re-analysis of the deposited data

How the results depend on the processing

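Of the 144 calls on single members, none changed direction under any alternative, and 1823 of 1982 alternative values were still called. The number of members called did move. With edgeR's F-test and no fold threshold, 4 were higher from naive cells to 3 h, 17 from 10 h to 33 h and 9 from expanded B cells to plasmablasts, 11 were lower from naive cells to 10 h, and 20 followed the course. Without a filter on low counts these numbers were, in order of the stages, 15 higher at 33 h, 7 higher and 13 lower in plasmablasts against expanded B cells, 12 lower at 10 h against naive cells, and 22 that followed the course. DESeq2 gave 3 higher at 33 h, 4 lower at 10 h against naive cells and 7 that followed the course. With at least 10 counts in every library, which left fewer members to test, 1 was higher at 3 h, 0 lower at 33 h, 20 lower in expanded B cells and 16 lower in plasmablasts against naive cells. A fit to only the 4 libraries compared gave 7 higher in plasmablasts against expanded B cells and 4 lower at 10 h against naive cells, and library size alone also gave 4 lower there. The cause of these differences was not tested. Leaving out 1 library at a time gave 2 to 3 members higher and 17 to 25 lower from naive cells to 3 h, 14 to 32 higher from 3 h to 10 h, 3 to 19 higher and 1 lower from 10 h to 33 h, 20 to 30 lower from 33 h to expanded B cells, 4 higher and 6 to 7 lower from there to plasmablasts, 6 to 7 higher and 4 to 16 lower from naive cells to 10 h, and 5 to 19 that followed the course. With 1 library left in a stage, that library is assumed to vary like the others. Library size alone shifted the median log2 change of all genes by -0.21, 0.33, -0.06, -0.01 and -0.34 over the 5 consecutive steps, by 0.12 from naive cells to 10 h and by -0.28 from naive cells to plasmablasts. With it, 2091 genes of all tested were called higher and 3716 lower from naive cells to 3 h (2674 and 3100 with TMM), 3432 and 1004 from 3 h to 10 h (2221 and 1711), 1181 and 2953 from expanded B cells to plasmablasts (1776 and 1553), and 2730 and 3884 from naive cells to plasmablasts (3386 and 2985). The F-test called 2964 higher and 2834 lower at 33 h (1288 and 567 with the fold threshold) and 2353 and 2700 in expanded B cells (885 and 467). For the members, library size alone gave 29 lower at 3 h, 29 higher at 10 h, 31 lower in expanded B cells and 15 that followed the course. Over all tested genes, the replicate differences of 1 stage did not go with those of another (correlations of -0.14 to 0.08 over 15 pairs of stages). Of the 42 members, 41 were higher in replicate 1 at 10 h and 41 at 33 h, but 32 were higher in replicate 2 at 3 h. Whether the number pairs the libraries cannot be told from these values. With the replicate block, 2 members were higher and 27 lower at 3 h, 23 higher at 10 h, 30 lower in expanded B cells, 6 higher and 9 lower in plasmablasts, and 13 followed the course. Depth limits the members with few counts, Oas1g, Oas2, Mx2, Parp12 and Ifi44, most.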
